A study of Rattus norvegicus with 6 samples.

Results

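The genes described here encode collagens, laminins, fibulins, fibronectin, decorin, lumican, the matrix metalloproteinases and their tissue inhibitors, which together build and remodel the extracellular matrix. They were chosen by symbol alone. Every collagen alpha chain, laminin chain, Mmp, Timp and Fbln gene whose probe could be named was taken, with Fn1, Dcn and Lum. This gave 55 genes of 15154 named genes on the array, carried by 70 of 30367 probes. Of those 30367 probes, 12363 had no gene name and may hold further such genes, so the 55 may not be the full set. A gene measured by several probes is given by its brightest probe. RNA came from the hippocampus of male Wistar rats, housed under 12 h of light per day, whose surgery was done at 2 months of age and whose tissue was taken 2 weeks later. In 3 animals both testes had been removed (orchidectomized), and 3 had a sham operation. The labels call the animals biological replicates, and 200 ng of total RNA of each was labelled with Cy3 and hybridised to its own Agilent array. The comparison asks how loss of the testes changes hippocampal expression. Because whole hippocampi were measured, fewer cells of a type and less RNA per cell cannot be told apart.

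Fibrillar collagens form the tensile fibres of connective tissue, and in the brain they lie mainly in the meninges, the stroma of the choroid plexus and around larger vessels. Type IV collagen and the laminins form the sheet-like basement membrane under endothelial and epithelial cells. Metalloproteinases cut matrix proteins and cell surface proteins, and the Timp proteins inhibit them. The neuropil itself holds little fibrillar collagen and is rich in hyaluronan-bound proteoglycans.

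Levels are given as log2 intensity after the array's 75th percentile was subtracted, so that a level of 0 lies at that percentile. Levels of different probes are not comparable with each other, and only the same probe is compared across arrays. Each array had 23785 to 26173 probes well above background, and precision is limited by there being 6 arrays. The array labelled sham 2 stood apart from the others before any gene was considered. Its log2 values correlated with those of the other 5 arrays at 0.876 to 0.88 over all probes, whereas pairs of the other 5 reached 0.983 to 0.993. The 10 excitatory neuron markers summed to 1.23 times the 75th percentile on it, against 15.9 to 22.8 on the others, so the defining neuronal markers of the labelled tissue were low there. The choroid plexus markers summed to at least 356 on the array labelled sham 2, where 7 of them were saturated, against 10.4 to 40.7 on the others. It therefore goes against its label. It was alone on its slide, and it was scanned on the same day as sham 3. It is compared with the other 5 arrays as 1 array, without a test, and the comparison of orchidectomized with sham-operated animals is given with and without it.

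The promoters of 4 of these genes are printed as examples of start regions in the group. Promoter sequence was matched by symbol for 39 of the 55 genes in the RefSeq table of the GRCr8 assembly, as the 250 bases before and 50 bases after the transcript start. They are shown because Col8a1 had the highest difference of the group on the array labelled sham 2, Col1a2 encodes a main fibrillar chain that was also higher there, and Mmp3 and Mmp12 are protease genes well above background on that array alone. Each is on the + strand, at chr11:56246532-56246831 for Col8a1, chr4:33518307-33518606 for Col1a2, chr8:12925031-12925330 for Mmp3 and chr8:12866402-12866701 for Mmp12. Capitals mark matches to 4 motifs searched on either strand. The TATA box was searched as TATAAA and places the start of many inducible genes. The CCAAT box was searched by those letters and the GC box, bound by the Sp1 family, as GGGCGG. The AP-1 motif, the binding letters of Fos and Jun dimers, was searched as TGAGTCA.
Col8a1: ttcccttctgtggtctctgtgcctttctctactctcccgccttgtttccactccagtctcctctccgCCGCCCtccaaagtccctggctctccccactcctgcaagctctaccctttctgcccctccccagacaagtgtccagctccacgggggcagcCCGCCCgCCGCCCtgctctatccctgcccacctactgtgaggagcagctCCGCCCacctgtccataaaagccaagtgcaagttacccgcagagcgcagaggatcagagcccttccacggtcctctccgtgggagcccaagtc
Col1a2: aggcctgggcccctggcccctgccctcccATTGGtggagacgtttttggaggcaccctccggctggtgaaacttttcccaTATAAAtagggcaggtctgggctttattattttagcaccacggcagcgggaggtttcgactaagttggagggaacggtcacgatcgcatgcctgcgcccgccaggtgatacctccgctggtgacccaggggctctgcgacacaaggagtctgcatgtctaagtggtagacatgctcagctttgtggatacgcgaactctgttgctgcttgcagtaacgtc
Mmp3: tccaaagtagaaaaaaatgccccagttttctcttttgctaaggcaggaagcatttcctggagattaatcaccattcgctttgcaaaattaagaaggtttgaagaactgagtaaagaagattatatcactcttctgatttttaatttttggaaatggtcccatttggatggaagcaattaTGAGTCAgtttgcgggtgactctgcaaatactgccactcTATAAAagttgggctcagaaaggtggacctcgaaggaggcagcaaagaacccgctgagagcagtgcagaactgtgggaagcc
Mmp12: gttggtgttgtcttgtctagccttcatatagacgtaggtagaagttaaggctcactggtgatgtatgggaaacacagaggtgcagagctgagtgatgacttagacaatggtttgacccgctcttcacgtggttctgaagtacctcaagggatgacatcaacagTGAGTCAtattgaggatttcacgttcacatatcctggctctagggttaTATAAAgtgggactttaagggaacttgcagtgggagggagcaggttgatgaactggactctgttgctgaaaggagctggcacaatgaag
With positions counted from the transcript start, the TATA box of Mmp3 begins at -32 and its AP-1 motif at -71. The same pair begins at -39 and -87 in Mmp12. Col1a2 holds a TATA box at -170 and a CCAAT box on the other strand at -221 from its annotated start, and Col8a1 holds the GC box on the other strand at -183, -92, -85 and -43. No capital letter belongs to more than 1 motif. Across the group, the AP-1 motif lay in 6 of 39 promoters, those of Mmp1, Mmp3, Mmp7, Mmp10, Mmp12 and Mmp13, and in 4.63% of all 33469 promoters of the table. The TATA box lay in 11 of 39 and in 14.2% of all, the GC box in 20 of 39 and in 33.1% of all, and the CCAAT box in 11 of 39 and in 37.5% of all. These counts are descriptions of the letters in the windows.

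Of the 55 genes, 50 were well above background on at least 1 array. Mmp7, Mmp8, Mmp10, Mmp20 and Mmp27 were not well above background on any array. Mmp3 and Mmp12 were so on the array labelled sham 2 alone, and Mmp21 on sham 3 alone. Of the 50, 20 lay more than 1 log2 unit above the highest of the other 5 arrays on the array labelled sham 2, and 12 lay more than 1 log2 unit below the lowest. Over the 13780 named genes detected on any array, 17.3% were higher and 19.8% lower by the same rule. The difference from the median of the other 5 arrays had a median of 1.07 over the 50 genes and of 0.04 over all detected genes. Its absolute size had a median of 1.89, against 0.89 over all detected genes, and it ran from -6.61 for Col11a2 to 10.03 for Col8a1. With normexp background correction, 16 were higher and 8 lower, and genes near background differed less. Mmp12 then differed by 0.81, Mmp3 by 0.45, Mmp11 by 1.47, Col4a4 by 1.96, Fbln5 by 1.76, Fbln1 by 1.28, Col14a1 by 1.12, Col8a1 by 8.09, Lama1 by -0.63, Lamb3 by -1.37, Mmp9 by -0.53, Mmp16 by -3.64 and Col7a1 by -0.94. In the processed signal, Mmp23 passed the limit most narrowly among the genes named here, 1.05 beyond the range of the others. Col18a1 at 0.91, Mmp19 at 0.87, Mmp28 at 0.83 and Col1a1 at 0.82 beyond that range fell just short of it and count as neither.

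**Figure D1:**
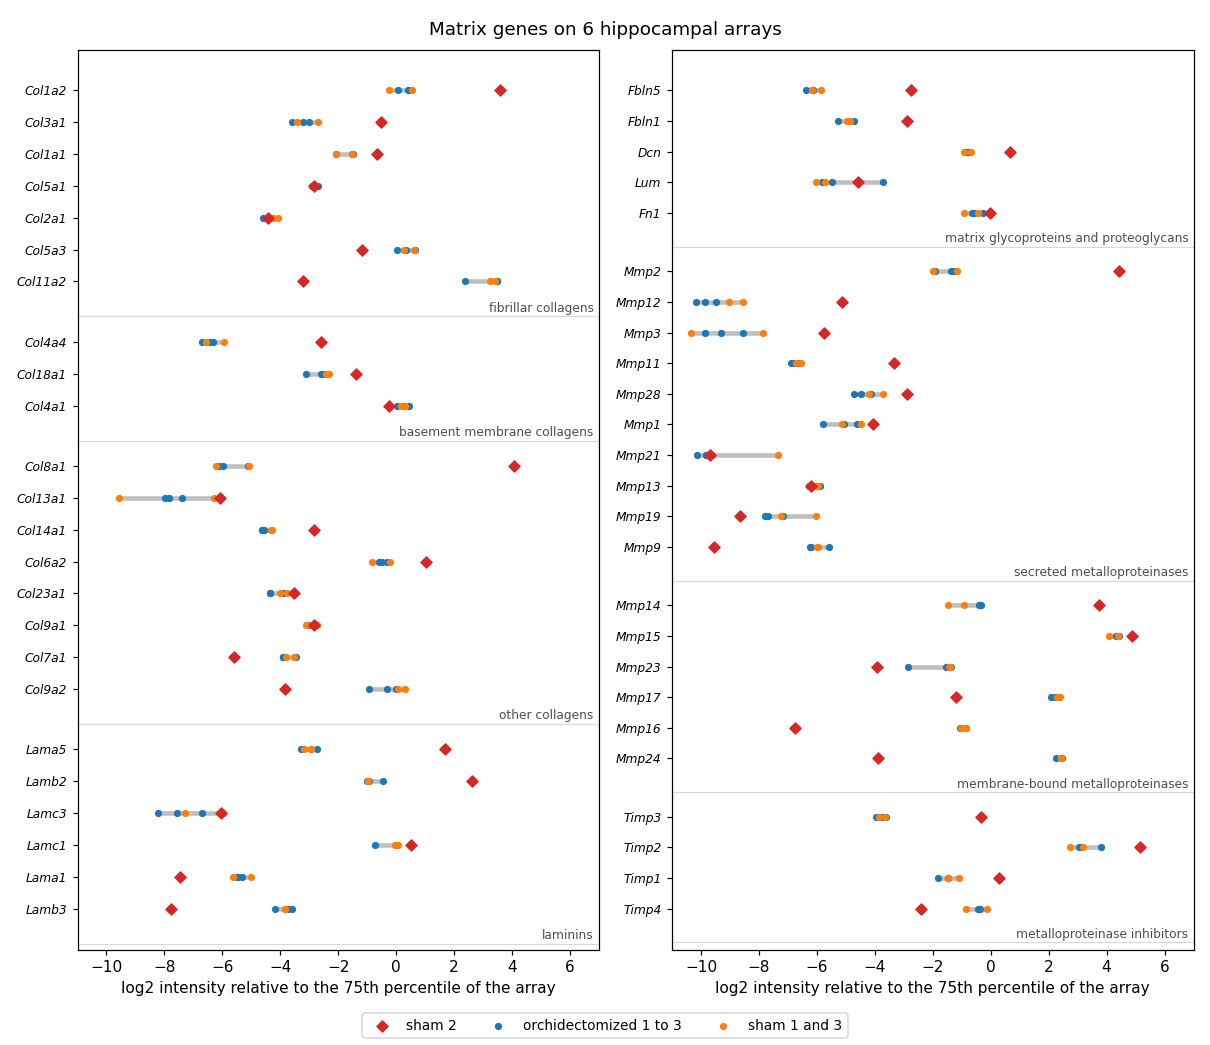
Log2 intensity of the matrix genes reported by name that were well above background on at least 1 array, relative to the array's 75th percentile, with the array labelled sham 2 drawn apart from the 3 orchidectomized arrays and the other 2 sham arrays. The 5 other arrays lie close together at most genes, with a median range of 0.66 log2 units, while the array labelled sham 2 differs from their median by -6.61 to 10.03 log2 units.

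The collagens lay on both sides of the other arrays on the array labelled sham 2. Of 18 detected collagen genes, 6 were higher, 4 lower and 8 neither, and their median difference was 0.67. The shares over all detected genes were 17.3% higher and 19.8% lower, and they stand beside each count by role below. Among the 7 fibrillar chains, Col1a2 and Col3a1 were higher, Col5a3 and Col11a2 lower, and Col1a1, Col2a1 and Col5a1 neither. Col1a2, the second chain of type I collagen, had a log2 level of 3.58 on the array labelled sham 2, against 0.46, 0.07 and 0.41 in the orchidectomized animals and 0.54 and -0.25 in sham 1 and 3. That is 8.97 times the median of the other 5 arrays. Col3a1, which forms the type III collagen of reticular fibres and vessel walls, had -0.54 there, against -3.01, -3.23 and -3.59 in the orchidectomized animals and -2.70 and -3.42 in sham 1 and 3. The other 5 arrays did not reach either gene's level on the array labelled sham 2. Col1a1, whose product pairs with that of Col1a2, had -0.67 there, against -1.52, -2.07 and -1.49 in the orchidectomized animals and -1.53 and -2.07 in sham 1 and 3. Its difference of 0.86 thus left it short of the limit while its partner chain exceeded it.

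Col11a2, a chain of the type XI collagen that nucleates fibrils in cartilage, was the gene of this group with the largest negative difference at the brightest probe. Its second probe differed less, by -3.5. The brightest probe had a log2 level of -3.20 on the array labelled sham 2, a 97.9-fold lower signal. It had 3.47, 3.47 and 2.39 in the orchidectomized animals and 3.41 and 3.25 in sham 1 and 3. Col5a3, a chain of the type V collagen that regulates fibril diameter, had -1.17 there and between 0.02 and 0.65 on the others. Col2a1, the cartilage collagen, differed by -0.05, and Col5a1 by -0.04. The median over the fibrillar chains was -0.04 and took either sign across scalings, from -0.13 to 0.30.

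Among the 3 basement membrane collagens, Col4a4 was higher and Col4a1 and Col18a1 were neither. Col4a4, a type IV chain with a restricted tissue range that includes the kidney glomerulus, had -2.59 on the array labelled sham 2, against -6.42, -6.71 and -6.32 in the orchidectomized animals and -5.95 and -6.55 in sham 1 and 3, a 14.3-fold higher signal. Col4a1, the type IV chain present in nearly all basement membranes, differed by -0.53 at its brightest probe and by -2.03 at its second. Col18a1, the source of endostatin, had -1.40 there, against -2.54, -2.58 and -3.12 in the orchidectomized animals and -2.31 and -2.43 in sham 1 and 3. The 2 type IV chains therefore lay on opposite sides of their other 5 arrays.

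Among the 8 other collagens, Col8a1, Col6a2 and Col14a1 were higher, and Col7a1 and Col9a2 lower. Col8a1, a short-chain collagen of subendothelial and corneal matrix, had a log2 level of 4.07 on the array labelled sham 2. It had -5.12, -6.11 and -5.97 in the orchidectomized animals and -5.07 and -6.21 in sham 1 and 3, all well above background, and the difference amounted to 1050-fold. No other gene of the 50 differed as much in either direction. Col6a2, a chain of microfibrillar type VI collagen, had 1.04 there and between -0.85 and -0.20 on the others. Col14a1, a collagen attached to fibril surfaces, differed by 1.74. Col9a2, a chain of the type IX collagen that decorates cartilage fibrils, had -3.85 there and between -0.95 and 0.30 on the others. Col7a1, the anchoring fibril collagen of skin, had -5.60 there and between -3.91 and -3.46 on the others. Col9a1, Col13a1 and Col23a1 differed by 0.02, 1.75 and 0.48 and did not pass the limit, and Col13a1 was not well above background on every array.

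Laminins are trimers of an alpha, a beta and a gamma chain. Of the detected laminin genes, 3 were higher on the array labelled sham 2, 2 lower and 2 neither. The shares over all detected genes were 17.3% and 19.8%. Lama5, the alpha chain common in adult endothelial and epithelial basement membranes, had a log2 level of 1.69 there, against -2.94, -3.27 and -2.73 in the orchidectomized animals and -2.93 and -3.17 in sham 1 and 3, a 24.8-fold higher signal. Lamb2, a beta chain that pairs with it, had 2.61 there, against -0.93, -1.02 and -0.47 in the orchidectomized animals and -0.98 and -0.96 in sham 1 and 3, an 11.9-fold higher signal. Lamc1, the gamma chain of most laminin trimers, had 0.51 there and between -0.72 and 0.08 on the others. Its brightest probe differed by 0.51, and its second probe by 1.76. Both differences were smaller than those of the alpha chain (4.63) and the beta chain (3.58).

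Lamb3, a beta chain of epithelial laminin, was not well above background on the array labelled sham 2, where it was at least 12.8-fold dimmer. It had -3.72, -4.17 and -3.59 in the orchidectomized animals and -3.85 in both sham 1 and sham 3. Lama1, an alpha chain typical of embryonic basement membrane, was also not well above background on it, at least 4.24-fold dimmer. These bounds, like others written as "at least", set the mean of the brighter side against, on each dim array, whichever is higher, the probe's own level or the dimmest level still well above background. Over the 13 genes with at least 2 detected probes, the probes lay on the same side in 10 and on both sides in 3, among them Fn1 and Col9a1.

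**Figure D2:**
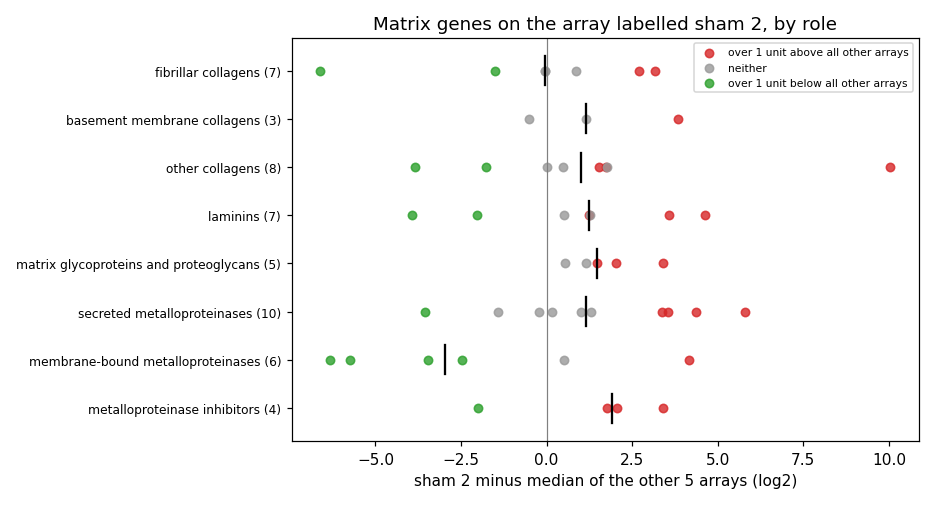
Difference between the array labelled sham 2 and the median of the other 5 arrays, in log2 units, for each detected gene, grouped by role. Black bars mark the median of each role. Colour marks genes more than 1 log2 unit above the range of the others, more than 1 log2 unit below it, or neither. The membrane-bound metalloproteinases have a median of -2.98, whereas the inhibitors have a median of 1.91.

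Of the 5 matrix glycoproteins and small proteoglycans, Fbln5, Fbln1 and Dcn were higher on the array labelled sham 2, and Fn1 and Lum were neither. Fbln5, needed for elastic fibre assembly, had -2.76 there, against -6.18, -6.38 and -6.12 in the orchidectomized animals and -5.86 and -6.18 in sham 1 and 3, a 10.6-fold higher signal. Fbln1, a glycoprotein of basement membranes and elastic fibres, had -2.90 there and between -5.27 and -4.72 on the others. Dcn, the collagen-binding proteoglycan decorin, had 0.68 there and between -0.92 and -0.67 on the others. Fn1, fibronectin, differed by 0.55 at its brightest probe and by -0.09 at its second. Lum, the fibril-spacing proteoglycan lumican, was highest in orchidectomized 3, at -3.71, against -4.58 on the array labelled sham 2 and -6.04 to -5.47 on the other 4. Its high value in 1 orchidectomized animal was not shared by Dcn, which had -0.80 there.

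Of 10 detected secreted metalloproteinase genes, 4 were higher on the array labelled sham 2, 1 lower and 5 neither. Over all detected genes, 17.3% were higher and 19.8% lower. Mmp3 and Mmp12, among the 4, counted as detected through that array alone, so their place there follows largely from the filter. With normexp 2 were higher and 0 lower. Mmp2, the gelatinase that cuts type IV collagen, had a log2 level of 4.43 there, against -1.26, -1.36 and -1.91 in the orchidectomized animals and -1.18 and -2.0 in sham 1 and 3, a 55.1-fold higher signal. Its second probe differed by 6.39. Mmp11, stromelysin of stromal cells, had -3.35 there and between -6.88 and -6.55 on the others. Mmp12, the macrophage elastase, was at least 6.37-fold brighter and Mmp3, stromelysin, at least 4.11-fold brighter on the array labelled sham 2 than on the other 5, none of which was well above background. Mmp9, the other gelatinase, was on the opposite side. It had -6.23, -6.22 and -5.58 in the orchidectomized animals and -6.00 and -5.97 in sham 1 and 3, and it was not well above background on the array labelled sham 2, at least 2.86-fold dimmer. Both gelatinases therefore differed there, in opposite directions. Mmp1, Mmp13, Mmp19, Mmp21 and Mmp28 did not pass the limit.

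Of the 6 membrane-bound metalloproteinases, 4 were lower on the array labelled sham 2, 1 was higher and 1 was neither. Mmp24, a membrane-type enzyme best known from neurons, had a log2 level of -3.89 there, against 2.46, 2.44 and 2.27 in the orchidectomized animals and 2.44 in both sham 1 and sham 3, an 80.5-fold lower signal. Mmp16, another membrane-type enzyme found in brain, had -6.76 there, against -1.05, -0.85 and -1.01 in the orchidectomized animals and -1.02 and -0.85 in sham 1 and 3, a 53.9-fold lower signal. Mmp17, which is held to the membrane by a lipid anchor, had -1.20 there, against 2.33, 2.22 and 2.08 in the orchidectomized animals and 2.28 and 2.38 in sham 1 and 3, an 11.2-fold lower signal. Among the other 5 arrays these 3 genes varied little, with ranges of 0.20, 0.21 and 0.30 log2 units for Mmp24, Mmp16 and Mmp17. Mmp23 had -3.92 there, against -2.87 to -1.36 on the others.

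Mmp14, the membrane-type enzyme that activates the Mmp2 proenzyme, was the higher one. It had 3.74 on the array labelled sham 2, against -0.42, -0.34 and -0.36 in the orchidectomized animals and -0.92 and -1.49 in sham 1 and 3, a 17.9-fold higher signal. Mmp15, a related enzyme, had 4.89 there and between 4.10 and 4.44 on the others, while its second probe differed by 1.78. Among the membrane-bound enzymes the array labelled sham 2 thus had its highest difference at Mmp14 and its lowest at Mmp24.

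All 4 inhibitors lay outside the range of the other 5 arrays on the array labelled sham 2. Timp3, the inhibitor bound to the matrix, had -0.33 there, against -3.74, -3.60 and -3.95 in the orchidectomized animals and -3.64 and -3.86 in sham 1 and 3, a 10.6-fold higher signal. Timp1, the secreted inhibitor induced in injury, had 0.28 there and between -1.81 and -1.10 on the others, a 3.42-fold higher signal. Timp2, the inhibitor that also takes part in Mmp2 activation, was saturated there, where its signal exceeded the mean of the others at least 3.95-fold, and lay between 2.72 and 3.80 on those. Timp4 was the lower one, with -2.40 there, against -0.43, -0.38 and -0.39 in the orchidectomized animals and -0.12 and -0.84 in sham 1 and 3, a 4.03-fold lower signal.

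Other genes of matrix biology, in lists chosen with earlier results of these data known, are described by the same rule. For these lists and the cell type markers below, the shares over all detected genes were 17.3% higher and 19.8% lower. Collagen processing genes were higher in 10 of 16 and lower in 1, with a median difference of 2.16. Plod2, a lysyl hydroxylase, differed by 5.71, and the lysyl oxidase relatives Loxl1 and Loxl2, which act on collagen crosslinks, by 4.14 and 3.66. Their relative Loxl4 had -4.04 on the array labelled sham 2 and was well above background on 1 of the other 5, at up to -6.21. Small leucine-rich proteoglycans were higher in 4 of 8 and lower in 0, with a median of 2.44 and Ogn (osteoglycin) at 6.82. Fmod (fibromodulin) was saturated on the array labelled sham 2 and at least 49.9-fold brighter there. Matrix receptors were higher in 7 of 16 and lower in 1, with a median of 1.31. The syndecan gene Sdc1 differed by 4.61, the integrin genes Itgb5 and Itga1 by 3.61 and 2.42, and Bcam, which encodes a laminin receptor, by 3.31.

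Perineuronal net and brain proteoglycan genes lay on the other side, lower in 13 of 14 and with a median of -4.42. Tnr, the tenascin of perineuronal nets, differed by -6.69, and the lecticans Bcan, Vcan and Ncan by -6.34, -5.86 and -5.59, where Bcan was saturated on 4 of the other 5 arrays. Reln, which encodes reelin, was the 1 higher gene, at 3.39. Their summed signal was 8.79 times the 75th percentile on the array labelled sham 2, against 53.4 to 82.0 on the others.

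Elastic fibre and stromal glycoprotein genes were higher in 7 of 17 and lower in 4, with a median of 0.41. Thbs2, an antiangiogenic thrombospondin, differed by 7.83, Ltbp3, which binds latent TGF-beta, by 2.82 and the fibulin relative Efemp1 by -3.07. Postn (periostin) had -4.09 on the array labelled sham 2 and was well above background on 1 of the other 5, at up to -7.17. Basement membrane partners were higher in 2 of 7 and lower in 2, with a median of -0.06 that reached 0.30 under another scaling. In that list Tinagl1 and the netrin gene Ntn4 differed by 4.46 and 3.28, and Sparcl1 and Agrn were the lower genes. Agrn (agrin), named after its values were seen, differed by -1.51, and Sparcl1 by -4.26, which is a minimum because it was saturated on the other 5 arrays. Smoc2 differed by -1.64 and was neither. Other matrix proteases and inhibitors were higher in 3 of 15 and lower in 2, with a median of 0.96 that was 0.14 with normexp. The aggrecan-cutting protease genes Adamts1 and Adamts5 differed by 4.74 and 4.05 and Htra1 by -3.51, while Adamts4 was not well above background on the array labelled sham 2 and at least 8.41-fold dimmer.

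Markers of several cell types also differed on the array labelled sham 2. Choroid plexus markers were higher in 13 of 14, with a median difference of 8.64. The remaining marker, Ttr, had 5.16 on the array labelled sham 2 and 5.2 on orchidectomized 1 and was saturated on both, so these levels are minima. The sum of the choroid plexus markers was at least 356, against 10.4 to 40.7 on the others. Markers of meninges and fibroblasts were higher in 6 of 10 and lower in 0, with a median of 2.06 and a sum of at least 132 (3 markers saturated) against 14.5 to 24.4. Endothelial markers were higher in 4 of 13 and lower in 3, with a median of 0.23 and sums of 19.8 against 6.42 to 10.9. Most of that sum of 19.8 was Kdr and Plvap, at log2 levels of 3.06 and 3.04. The higher genes were Plvap, Ly6c, Emcn and Kdr. The lower ones were Abcb1a, Cldn5 and Slco1a4. Markers of pericytes and smooth muscle were higher in 1 of 11 and lower in 1, with a median of 0.11 and sums of 3.57 against 3.68 to 4.38.

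Markers of the hippocampal cell types lay lower on the same array. Excitatory neuron markers were lower in 9 of 10, with a median of -6.07. Astrocyte markers were lower in 6 of 8, with a median of -4.24 and sums of 18.3 against 87.3 to 144. Oligodendrocyte markers were lower in 7 of 8, with a median of -4.47 and sums of 18.8 against 71.8 to 94.0. The astrocyte and oligodendrocyte sums on the other arrays are minima, because Aldoc and Mbp were saturated on each of them. Microglial markers were lower in 3 of 8, with a median of -1.41 and sums of 3.90 against 7.49 to 11.1. None of the markers in these 4 lists was higher there. The part of any of these markers in the values of the matrix genes was not tested.

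**Figure D3:**
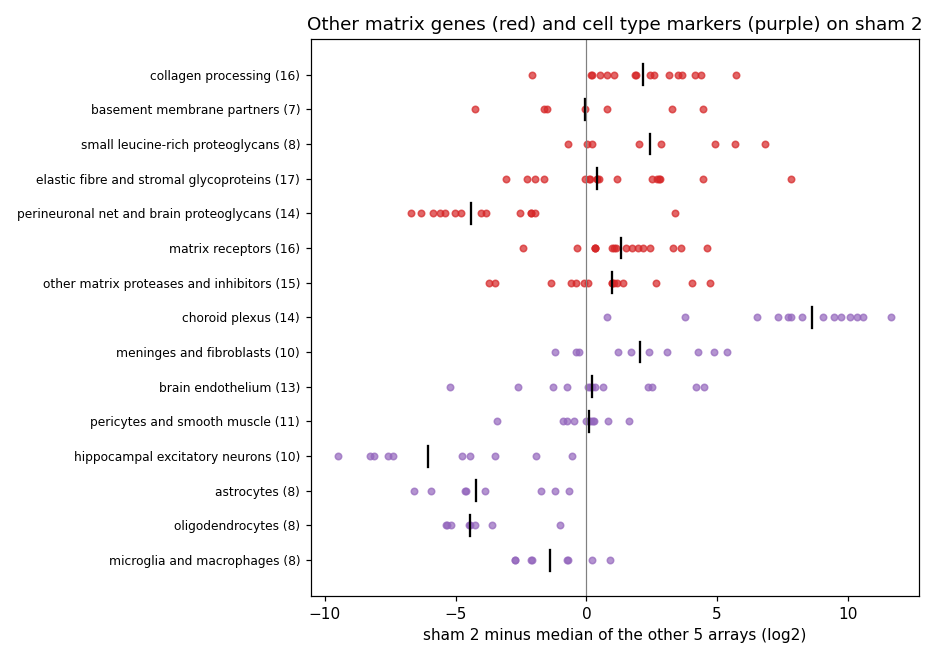
Difference between the array labelled sham 2 and the median of the other 5 arrays, in log2 units, for each detected gene of the other matrix lists (red) and of the cell type marker lists (purple), with each list's median as a black bar. Small leucine-rich proteoglycans (2.44) and collagen processing genes (2.16) lie on the side of the choroid plexus markers (8.64), and perineuronal net genes (-4.42) on the side of the excitatory neuron markers (-6.07).

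Orchidectomized and sham-operated animals were then compared over all 6 arrays with limma, with Benjamini-Hochberg adjustment over all 24630 tested probes. A probe entered the fit if every array of 1 or both groups had it well above background, which held for the brightest probe of 45 matrix genes. None of the 45 passed an adjusted p of 0.05, and 0 had an unadjusted p under 0.05. Over all probes 0.0% passed the adjusted threshold, and 0.731% had an unadjusted p under 0.05. The smallest adjusted p among the 45 was 0.775. The difference was negative for 30 and positive for 15, and signs over all tested genes were not counted. Its median was -0.42, against -0.03 over all tested genes, and it ran from -3.33 to 2.06.

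The groups did not overlap for 3 of the 45 genes, Col5a1 on the higher side and Col14a1 and Col18a1 on the lower side, where 8.0% of all tested probes did not overlap. Col14a1 had a log2 level of -4.61 ± 0.05 in orchidectomized and -3.82 ± 0.87 in sham animals (SD, n = 3 each), a difference of -0.79 (SE 0.45). Col18a1 had -2.75 ± 0.32 in orchidectomized and -2.05 ± 0.56 in sham animals (SD, n = 3 each), a difference of -0.70 (SE 0.35). The smallest unadjusted p belonged to Mmp28, epilysin, which had -4.45 ± 0.29 in orchidectomized and -3.60 ± 0.66 in sham animals (SD, n = 3 each). Its difference was -0.86 with a standard error of 0.38. Col23a1 had a difference of -0.42. Lamc3, which was well above background in 1 of 3 orchidectomized and 3 of 3 sham animals and so entered the fit through the sham arrays alone, had one of -1.07 that became 0.06 with normexp. With normexp the differences were also smaller for Mmp28 (-0.43), Col14a1 (-0.41) and Col23a1 (-0.23). Each of these 5 genes had an adjusted p of 0.775 in limma, and with the array labelled sham 2 left out the differences became -0.29 for Col14a1, -0.38 for Col18a1 and -0.50 for Mmp28.

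Without the array labelled sham 2, 46 of the matrix genes were tested among 25208 probes, and limma called 0 of them, while 1 had an unadjusted p under 0.05. Over all probes 0.0% passed the adjusted threshold, and 2.71% had an unadjusted p under 0.05. The smallest adjusted p was 0.988. The difference was negative for 30 and positive for 16, and signs over all tested genes were again not counted. Its median was -0.08, against -0.03 over all tested genes, and it ran from -0.91 to 0.88. The groups did not overlap for 6 of the 46, with Mmp14 and Col5a1 on the higher side and Col2a1, Col9a2, Col14a1 and Col18a1 on the lower side, where 16.3% of all tested probes did not overlap.

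Mmp14 was the 1 gene with an unadjusted p under 0.05. Its log2 levels were -0.42, -0.34 and -0.36 in the orchidectomized animals, against -0.92 and -1.49 in sham 1 and sham 3. All 3 orchidectomized values lay above both sham values, and the difference was 0.83 with a standard error of 0.20 (limma, Benjamini-Hochberg adjusted p = 0.988). Over 15 alternative settings the difference ran from 0.54 to 1.12 and the adjusted p from 0.148 to 1.0. It was 0.56 with slide as a block, which sets orchidectomized 3 alone against sham 1. With scan day as a block, which sets the 3 orchidectomized arrays against sham 1 alone, the difference was 0.54. With the array labelled sham 2 included, the difference was -0.82 with a standard error of 1.41. The choroid plexus markers summed to 40.7, 32.7 and 22.6 in orchidectomized 1, 2 and 3, against 15.1 and 10.4 in sham 1 and sham 3. Most of that sum was Ttr (transthyretin), at 36.8, 29.1 and 20.6 times the 75th percentile in orchidectomized 1, 2 and 3, against 11.1 and 7.96 in sham 1 and sham 3, and it was saturated in orchidectomized 1. The 13 other markers summed to 3.86, 3.56 and 2.04 in the orchidectomized animals, against 3.98 and 2.44 in sham 1 and sham 3. These sums overlapped between the groups and were highest in sham 1. Most of each such sum was Enpp2. Its log2 levels were 1.4, 1.35 and 0.37 in the orchidectomized animals, against 1.53 and 0.9 in sham 1 and sham 3. Taken singly, 12 of the 13 choroid plexus markers that limma tested, Ttr among them, had a positive difference and 1 a negative one. Their median difference was 0.3, against -0.03 over all tested genes, for which signs were not counted. The part of the marker signal in the Mmp14 difference was not tested.

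The next genes by unadjusted p had negative differences, and none was called (limma adjusted p 0.988 for each). Col14a1 differed by -0.29 with a standard error of 0.12, and by -0.04 with normexp. Mmp19, a stromal protease, was well above background in 1 of 3 orchidectomized animals and in both sham animals, and entered the fit through the sham arrays alone. Its difference was -0.91 with a standard error of 0.39, and it was -0.31 without sham 1, -1.51 without sham 3 and 0.16 with normexp. Col9a2 had -0.32, -0.01 and -0.95 in the orchidectomized animals and 0.30 and 0.05 in sham 1 and 3, a difference of -0.60 (SE 0.29) that was -0.33 without orchidectomized 3 and -1.24 with slide as a block. Col2a1 had -4.36, -4.38 and -4.59 in the orchidectomized animals and -4.09 and -4.26 in sham 1 and 3, a difference of -0.27 (SE 0.14) that was -0.09 with normexp and -0.50 with slide as a block. In both genes the 3 orchidectomized values lay below the 2 sham values, while the slide block rests on orchidectomized 3 and sham 1 alone.

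**Figure D4:**
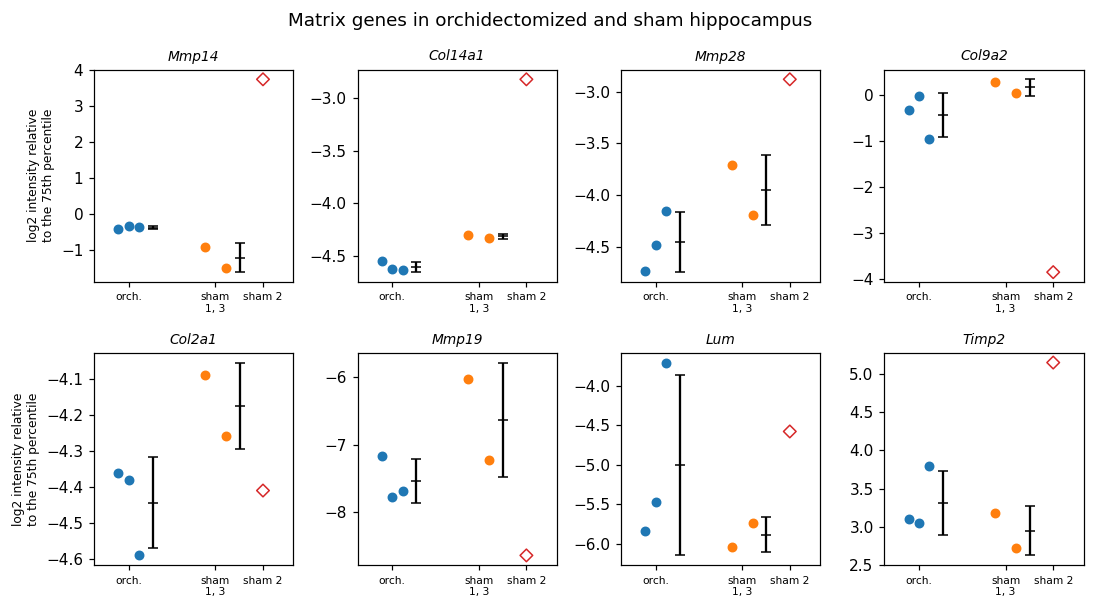
Log2 intensity relative to the array's 75th percentile for 8 matrix genes in the orchidectomized (left) and sham (right) animals, with points for single arrays, the array labelled sham 2 as an open diamond, and mean and SD as bars. Mmp14 lies between -0.42 and -0.34 in the orchidectomized animals, above sham 1 (-0.92) and sham 3 (-1.49) and below the array labelled sham 2 (3.74).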

How the data were processed

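Per the file headers, Agilent Feature Extraction 10.5.1.1 read each 1-colour array, and the deposited processed signal is a background-subtracted intensity. The table of log2 values that the authors deposited holds the log2 processed signal plus 1 constant per array, from which probes deviated by an SD of 0.008 to 0.012, with column medians of 8.02, 7.94 and 7.91 (orchidectomized) and 7.77, 7.62 and 8.05 (sham). Its scale is log2, its direction does not arise with 1 colour, and the origin of its centring stays unknown.

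Of 44254 spots per array, 1377 control spots and all outlier spots were left out, spots of a probe were averaged, and each array's 75th percentile was subtracted. The files hold no gene name column, so RefSeq accessions were matched to the GRCr8 gene table, naming 18004 probes and leaving 12363 unnamed. A probe was well above background or saturated where at least 50% of its spots were. Tests were two-sided, with limma 3.58.1 (R 4.3.3) and Benjamini-Hochberg adjustment. The fit was tested on simulated data. The counts cover all members, of which 1 is not reported here.

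The members, lists, tests and alternatives were chosen with earlier results of these data known. Members with values were fixed by role, with the 6 highest and 6 lowest differences on the array labelled sham 2 and the 6 smallest p-values per fit; Lum and Timp2 were added to the plot of the groups after their values were seen. Each other matrix list is illustrated by the up to 4 members with the largest absolute differences. Single cell type markers were named after their values were seen. Alternatives were normexp with an offset of 50 on median spot signals, quantile and median scaling, the deposited values, other filters and probe rules, array weights, a block for slide, scan day or replicate number, and leaving out arrays. The orchidectomized arrays lay on slides 1 and 2, and sham 1 on slide 2 with orchidectomized 3. The array labelled sham 2 and sham 3 lay on slides of their own, which were scanned on another day than the rest. A slide block therefore sets orchidectomized 3 against sham 1 alone.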

Additional observations from a re-analysis of the deposited data

How the results depend on the processing

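No matrix gene was called in either comparison under any setting, and of 124 alternative values of the named genes that were higher or lower on the array labelled sham 2, 0 changed sign. Of 72 for genes that were neither, 6 did, at Col2a1, Col5a1 and Mmp13, each with median scaling (0.21, 0.22 and 0.05) and with quantile normalization (0.3, 0.16 and 0.37). On that array the median difference was 1.31 with median scaling, 1.27 with quantile normalization, 0.86 with no filter on dim probes and 0.47 with normexp. All detected genes shifted there by a median of 0.3 with median scaling and 0.171 with quantile normalization, and the changes are relative to these. With a limit of 2 log2 units, 13 genes were higher and 7 lower. Over 6 arrays the median difference was -0.51 with median scaling, where all genes shifted by -0.101, -0.2 with a slide block, -0.17 with a scan day block, and -0.13 with array weights or normexp. Leaving out 1 array gave -0.71 (without sham 3) to -0.08 (without the array labelled sham 2). Without the array labelled sham 2 the median was 0.09 with normexp. Normexp also turned the differences of Lamc3 (0.06) over 6 arrays and of Mmp19 (0.16) without the array labelled sham 2, and the cause was not tested. With a replicate block the medians were -0.42 and -0.08 and 0 genes were called. Deviations of same-numbered animals from their group means correlated at 0.045, -0.031 and -0.032. The sham mean includes the array labelled sham 2, so these correlations cannot settle whether same-numbered animals were paired. Probes called over the whole table ranged from 0 to 13 over 6 arrays (13 with array weights) and from 0 to 251 without the array labelled sham 2 (251 without sham 3). Probes near background have the least certain differences.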

Other observations

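Among the 5 arrays other than the array labelled sham 2, orchidectomized 3 had the highest value for 11 of 50 matrix genes and the lowest for 17, sham 1 the highest for 24 and the lowest for 3, and sham 3 the highest for 4 and the lowest for 14. Over all detected genes, orchidectomized 3 was highest for 33.4% and lowest for 31.7%, sham 1 highest for 28.3% and lowest for 13.1%, and sham 3 highest for 18.8% and lowest for 21.8%. The 50 genes include Mmp3 and Mmp12, which were not well above background on these 5 arrays. Over the 20 genes that were higher on the array labelled sham 2, the mean log2 level was -3.60, -3.71 and -3.62 in orchidectomized 1 to 3, against -3.32 in sham 1 and -3.83 in sham 3. Sham 1 was highest of the 5 in 12 of these 20 genes, and sham 3 lowest in 8. Over the 12 genes that were lower there, the means were -1.13, -1.16 and -1.38 in orchidectomized 1 to 3, against -1.07 in sham 1 and -1.09 in sham 3. The range over the 5 arrays had a median of 0.66 log2 units and ran from 0.20 to 3.29.

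Of the other matrix lists, none held a gene called by limma in either comparison. Without the array labelled sham 2, 2.71% of all 25208 tested probes had an unadjusted p under 0.05 in limma. The median difference of all tested genes was then -0.03. How many of all tested genes had a negative or positive difference was not counted, so the counts by sign here are descriptions only. Without the array labelled sham 2, elastic fibre and stromal glycoprotein genes had a negative difference in 13 of 15 tested genes, with a median of -0.14, and 1 had an unadjusted p under 0.05. Small leucine-rich proteoglycans had a median of -0.11 over 7 genes, perineuronal net genes -0.08 over 14, collagen processing genes -0.06 over 15, 1 of them with an unadjusted p under 0.05, basement membrane partners 0.03 over 7, matrix receptors -0.05 over 16 and other proteases and inhibitors -0.04 over 14, 3 of them with an unadjusted p under 0.05. Choroid plexus markers had a positive difference in 12 of 13, with a median of 0.30 and 3 with an unadjusted p under 0.05, each with a positive difference.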
